A study of Mus musculus with 8 samples.

Results

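The transforming growth factor-β (TGF-β) family was examined in the livers of mice overexpressing alanine-glyoxylate aminotransferase (AGXT), which detoxifies glyoxylate, the precursor of oxalate. Members were chosen by gene name from the mouse annotation. They comprised the protein-coding genes for TGF-β ligands and their receptors, bone morphogenetic proteins (BMPs) and their receptors, growth differentiation factors (GDFs) except Gdf15, inhibin and activin subunits, activin receptors, and SMADs. This gave 49 genes among 52636 rows of the count tables. They were 27 genes for ligand subunits, 12 for receptors, 8 for SMADs, and Bmp1 and Bmp2k, which carry the name but encode a protease and a kinase.

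Ligands of this family are secreted as dimers, and many are held in an inactive form in the extracellular matrix until they are released. A ligand dimer brings type II and type I receptors together, the type I receptor phosphorylates receptor SMADs, and these join the common SMAD and enter the nucleus to regulate transcription, while inhibitory SMADs oppose this. In the liver, TGF-β is the best known activator of stellate cells and of collagen production, BMP signalling sets the production of the iron hormone hepcidin, and activin subunits are made by hepatocytes.

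Liver RNA was sequenced from 8 wild-type male C57BL/6J mice, 4 given AAV8-TBG-GFP and 4 given AAV8-TBG-AGXT, termed AAV8-GFP and AAV8-AGXT mice. AAV8 is an adeno-associated virus that infects the liver, and the thyroxine-binding globulin (TBG) promoter restricts the transgene, GFP or human AGXT, to hepatocytes. The virus was given at 7 weeks of age, and from 8 weeks of age all mice ate a diet rich in fat, fructose and cholesterol for 24 weeks to induce steatohepatitis (MASH), so that the controls carried a virus and the diet as well. The animal numbers were 303, 311, 314 and 315 in the AAV8-GFP group and 308, 309, 316 and 319 in the AAV8-AGXT group. Other cell types of the liver carried no transgene by design, none of these mice ate a standard diet, and the human transgene was not read here because the counts are on mouse genes.

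Each library held between 17095433 and 28780140 read pairs counted on genes. The library of mouse 308 stood apart with the smallest share of its read pairs on genes, 56.3%, against 62.4% to 64.8% in the other AAV8-AGXT mice and 63.3% to 69.1% in the AAV8-GFP mice. Members and pathway genes called by edgeR are given with and without it. Expression is given as counts-per-million (CPM), scaled for library composition, and groups were compared with the quasi-likelihood test of edgeR, adjusting p-values by Benjamini-Hochberg over all 15248 genes that passed a filter on low counts. A gene was called higher or lower at an adjusted p under 0.05. Hepatocyte markers such as albumin were abundant in all 8 libraries, with a summed level of 42975 to 51440 CPM over 6 markers in AAV8-GFP mice and 52528 to 74085 CPM in AAV8-AGXT mice. Markers of skeletal muscle and pancreatic acinar cells summed to at most 0.345 CPM in any mouse.

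Of the 49 members, 41 passed the filter on low counts. Bmp8b, Tgfb3 and Inha, all 3 encoding ligand subunits, were lower in AAV8-AGXT mice, and 0 members were higher. At an unadjusted p under 0.05, edgeR gave 9 lower and 2 higher members. The share of all genes at this unadjusted threshold was not computed. Counts at that threshold, here and below, therefore have no background and cannot be read as an excess. Of all genes tested, 1.9% were called lower and 2.45% were called higher, or 4.35% in either direction. The fall was 4.62-fold for Bmp8b, 2.41-fold for Tgfb3 and 3.46-fold for Inha. Of the 10 tested receptors and 8 tested SMADs 0 were called by edgeR or by DESeq2, and 1 of each was lower at an unadjusted p under 0.05 by edgeR. By the Wald test of DESeq2, 6 members passed the same threshold, the same 3 plus Tgfb2 and Gdf6, which were lower, and Bmp1, which was higher. DESeq2 called 6.37% of its genes lower and 6.58% higher.

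Mean expression was lower in AAV8-AGXT mice for 20 of the 41 tested members, and a lower mean was found for 47.7% of all genes tested. The median log2 fold change (AAV8-AGXT over AAV8-GFP) was 0.03 over these members and 0.02 over all genes tested. Scaling by total counts instead shifted the median of all genes to -0.22 and that of the members to -0.20, with a lower mean for 29 of the 41. There was no overlap between the groups for 4 tested members, Bmp8b, Tgfb3, Tgfb1 and Inha, all lower in AAV8-AGXT mice, and 7.63% of all genes tested were lower in this way. Conversely, 0 tested members had all AAV8-AGXT values above the AAV8-GFP range, against 8.93% of all genes tested. For 27 of the 41 tested members the log2 fold change lay between -0.5 and 0.5.

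**Figure D1:**
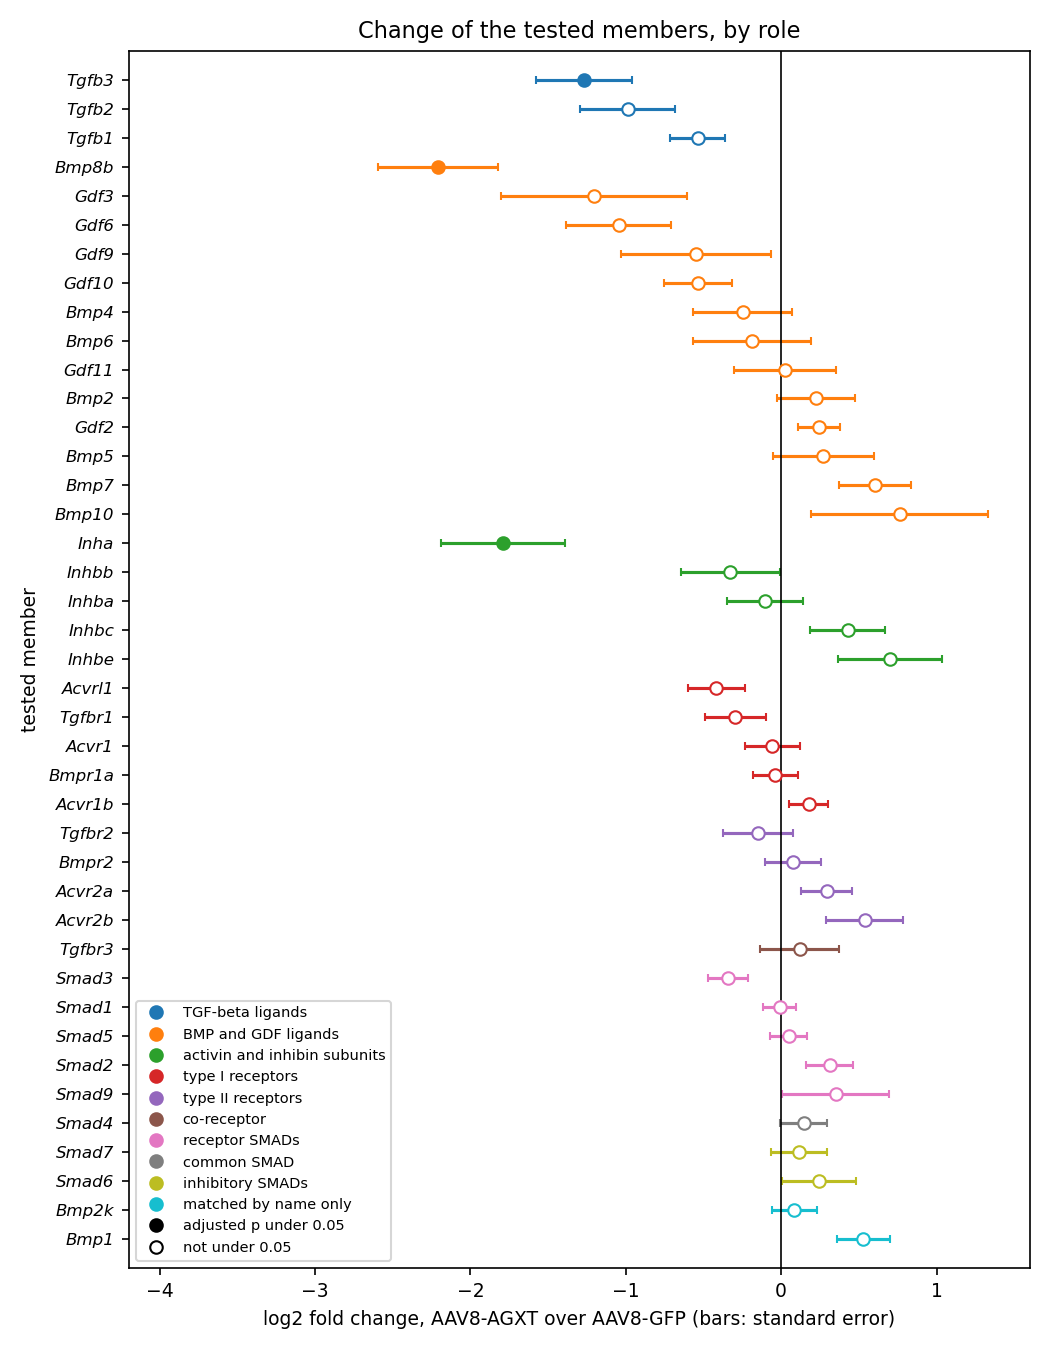
Log2 fold change (AAV8-AGXT over AAV8-GFP, horizontal axis) of the 41 tested members, ordered and coloured by role, with bars for the standard error. Filled points mark an adjusted p under 0.05 by edgeR, reached by Bmp8b, Tgfb3 and Inha, and the receptors and SMADs lie between -0.42 and 0.54.

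Bmp8b encodes a BMP ligand known for its part in the thermogenesis of brown fat. It lies on the plus strand at chr4:123105165-123132099 (GRCm38), and its paralog Bmp8a lies on the same chromosome. The coding sequences of both genes, from GENCODE M21 transcripts, were identical at 1053 of 1236 aligned positions (85.2%), and 18.3% of the stretches of 50 bases in the coding sequence of Bmp8b also occur in Bmp8a. The ends of both coding sequences, without the stop codon, are shown because they bear on whether reads can be told apart. They lie in exon 7 of each gene, at chr4:123313270-123313389 on the minus strand for Bmp8a and at chr4:123124415-123124534 on the plus strand for Bmp8b, and capitals mark the 24 of 120 bases that differ.
Bmp8a: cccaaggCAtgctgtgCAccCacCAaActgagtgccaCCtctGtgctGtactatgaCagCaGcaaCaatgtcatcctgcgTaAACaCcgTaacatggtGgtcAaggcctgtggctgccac
Bmp8b: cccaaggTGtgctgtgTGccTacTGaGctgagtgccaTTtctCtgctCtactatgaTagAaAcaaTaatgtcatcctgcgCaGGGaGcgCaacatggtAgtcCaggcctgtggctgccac

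Bmp8b was present at 4.37, 6.27, 4.34 and 5.38 CPM in AAV8-GFP mice 303, 311, 314 and 315. In AAV8-AGXT mice 308, 309, 316 and 319 it was present at 0.483, 1.68, 1.64 and 0.566 CPM, from 7, 28, 32 and 12 read pairs. The groups did not overlap, and among AAV8-AGXT mice 308 and 319 were both below 309 and 316. Bmp8a had at most 1 read pair in any mouse. Bmp8b had a log2 fold change of -2.21 (SE 0.39, n = 4 per group, edgeR adjusted p = 0.0292). Without mouse 308 it was -2.001 (edgeR adjusted p = 0.0435). The call was lost without mouse 311, 314 or 319 (edgeR adjusted p = 0.124, 0.0798 and 0.0774), while the fold change remained between -1.97 and -2.49 whichever mouse was left out. Exons of Bmp8b share bases with Ppie and Gm17244 on the opposite strand, and the strand setting of the read counting is not given in the sources used here. Ppie had between 10.7 and 15.0 CPM in every mouse with a log2 fold change of 0.00 (edgeR adjusted p = 0.996), and Gm17244 had at most 0.430 CPM.

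All 3 TGF-β ligand genes had lower mean levels in AAV8-AGXT mice, and also in each of the 16 alternative fits, but Tgfb3 alone was called. Tgfb3, on the minus strand at chr12:86056745-86079041, was present at 5.78, 5.36, 5.21 and 3.22 CPM in AAV8-GFP mice 303, 311, 314 and 315, and at 1.04, 2.94, 2.21 and 1.89 CPM in AAV8-AGXT mice 308, 309, 316 and 319. The lowest AAV8-GFP mouse, 315, lay just above the highest AAV8-AGXT mouse, 309. This gave a log2 fold change of -1.27 (SE 0.31, n = 4 per group, edgeR adjusted p = 0.0495), close to the threshold. Without mouse 308 it was -1.08 and was not called (edgeR adjusted p = 0.0801). The call was also lost without mouse 303, 311, 314, 316 or 319, with edgeR adjusted p-values of 0.0966, 0.164, 0.12, 0.074 and 0.117. The opposite-strand transcripts Gm48008 and Gm37804 share exon bases with Tgfb3, and neither exceeded 0.0918 CPM in any mouse.

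Tgfb1 encodes the TGF-β ligand with the highest level per kilobase of exon in these livers, 4.22 ± 0.819 CPM per kilobase in AAV8-GFP mice and 2.90 ± 0.580 in AAV8-AGXT mice (SD, n = 4 each). It was present at 18.9, 27.4, 19.9 and 18.8 CPM in AAV8-GFP mice 303, 311, 314 and 315, and at 11.3, 13.4, 17.9 and 16.0 CPM in AAV8-AGXT mice 308, 309, 316 and 319. No AAV8-AGXT mouse reached the level of any AAV8-GFP mouse, though 316 and 315 were within 1 CPM of each other. Its log2 fold change was -0.54 (SE 0.18, n = 4 per group), which did not pass the threshold (edgeR adjusted p = 0.0976). Tgfb2 was present at 3.16, 4.13, 3.92 and 1.85 CPM in AAV8-GFP mice and at 1.45, 2.28, 1.69 and 1.18 CPM in AAV8-AGXT mice, in the same order of animals. The groups overlapped because AAV8-GFP mouse 315 lay below AAV8-AGXT mouse 309. Its log2 fold change was -0.99 (SE 0.31, n = 4 per group, edgeR adjusted p = 0.0843), and by DESeq2 it was called (adjusted p = 0.0269). Summed over the 3 genes, TGF-β ligand expression ranged from 5.01 to 7.74 CPM per kilobase in AAV8-GFP mice and from 2.79 to 4.50 in AAV8-AGXT mice. Tgfb1 made up 62.5% to 74.6% of this sum in AAV8-GFP mice and 67.8% to 80.6% in AAV8-AGXT mice.

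Inha encodes the α subunit of inhibin, which pairs with a β subunit to oppose activin. It lies on the plus strand at chr1:75507077-75510366 and was scarce. AAV8-GFP mice 303, 311, 314 and 315 had 2.69, 2.94, 1.85 and 0.970 CPM, and AAV8-AGXT mice 308, 309, 316 and 319 had 0.414, 0.721, 0.822 and 0.472 CPM, from 6, 12, 16 and 10 read pairs. The groups did not overlap, but AAV8-GFP mouse 315 was closer to the AAV8-AGXT mice than to the other AAV8-GFP mice. The log2 fold change was -1.79 (SE 0.40, n = 4 per group, edgeR adjusted p = 0.0426), and without mouse 308 it was -1.68 and not called (edgeR adjusted p = 0.0871). Leaving out 303, 311, 314, 309, 316 or 319 also ended the call, with edgeR adjusted p-values of 0.0797, 0.148, 0.0951, 0.055, 0.0545 and 0.109, so that it held only without mouse 315.

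**Figure D2:**
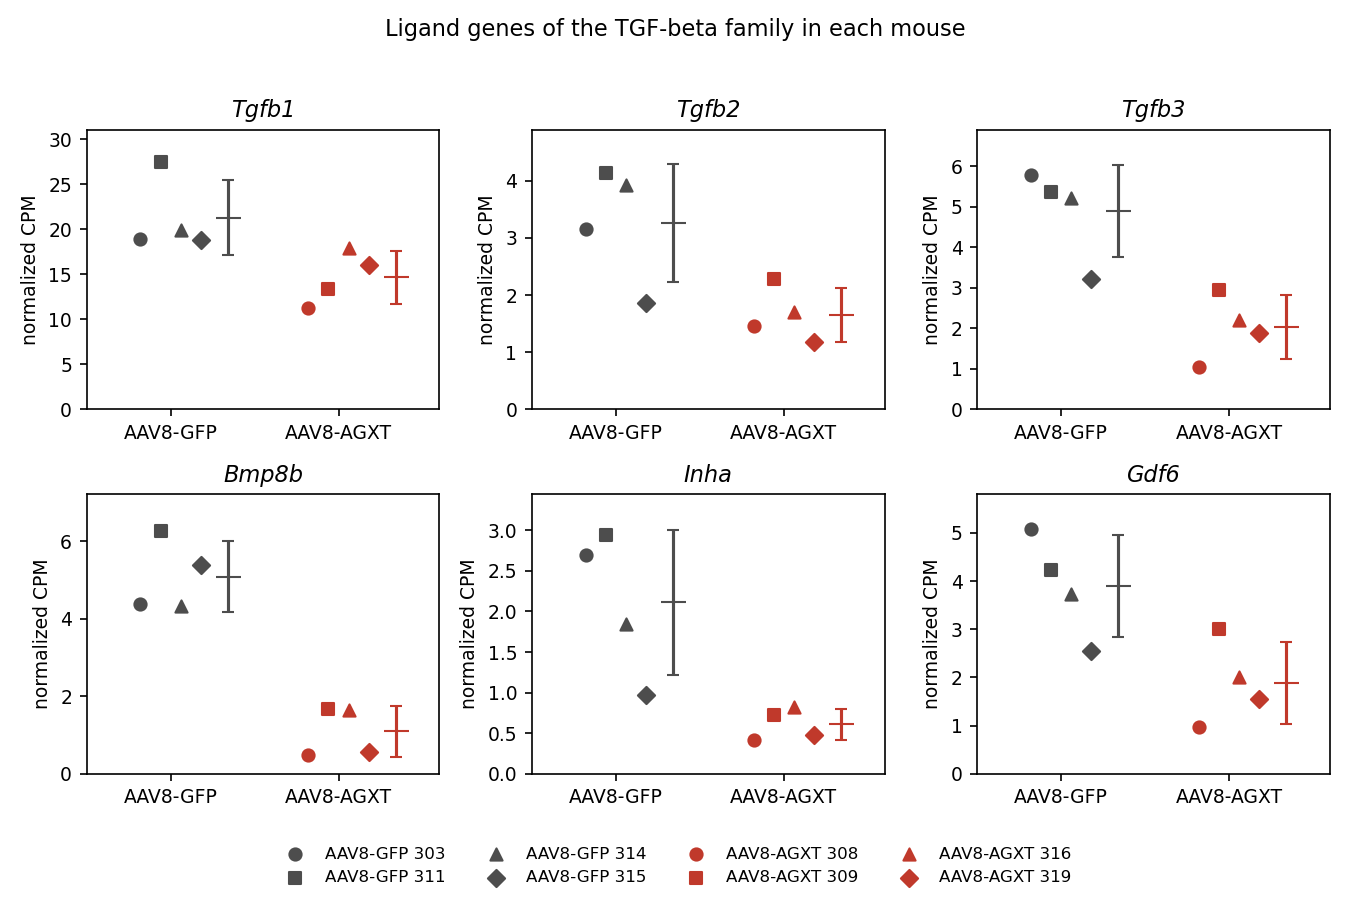
Normalized CPM (vertical axes, each from 0) of 6 ligand genes in each mouse, with 1 symbol per animal and the group mean ± SD to the right of the points. Tgfb1, Tgfb3, Bmp8b and Inha do not overlap between the groups, whereas Tgfb2 and Gdf6 do.

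No other gene for an activin subunit was called. Inhbe and Inhbc encode activin βE and βC, which are made mainly by hepatocytes, and they had the highest levels per kilobase of all tested members in both groups. Inhbe reached 49.3 ± 19.96 CPM per kilobase in AAV8-GFP mice and 80.2 ± 33.0 in AAV8-AGXT mice, and Inhbc reached 35.7 ± 3.23 and 48.1 ± 19.3 (SD, n = 4 each). Within mice, Inhbe was above Inhbc per kilobase in all 4 AAV8-AGXT mice and in 3 of 4 AAV8-GFP mice, and in mouse 315 both were at 38.8 CPM per kilobase. Inhbe was present at 422, 206, 216 and 206 CPM in AAV8-GFP mice 303, 311, 314 and 315, and at 637, 227, 358 and 484 CPM in AAV8-AGXT mice 308, 309, 316 and 319. Mouse 303 was as high as the middle of the AAV8-AGXT group, and mouse 309 was about as low as the other AAV8-GFP mice. The log2 fold change of 0.70 (SE 0.33, n = 4 per group) was not called (edgeR adjusted p = 0.215), nor was that of 0.43 for Inhbc (SE 0.24, edgeR adjusted p = 0.286). Without mouse 308, the highest for both, these fold changes were 0.43 for Inhbe and 0.14 for Inhbc (edgeR adjusted p = 0.465 and 0.680). Together Inhbe and Inhbc made up 65.2% to 75.8% of the level per kilobase of all ligand subunits in AAV8-GFP mice, and 70.7% to 87.9% in AAV8-AGXT mice. Inhba and Inhbb, the subunits of activin A and activin B, had log2 fold changes of -0.11 and -0.33 and were not called (edgeR adjusted p = 0.819 and 0.548).

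Among BMP and GDF ligands, 13 of 19 genes were tested and Bmp8b alone was called. Gdf2, which encodes BMP9, a ligand produced in the liver that acts on endothelial cells, had the highest level per kilobase of these, 7.70 ± 0.926 CPM per kilobase in AAV8-GFP mice and 9.11 ± 1.39 in AAV8-AGXT mice (SD, n = 4 each). It was present at 23.8, 26.3, 22.1 and 19.8 CPM in AAV8-GFP mice 303, 311, 314 and 315, and at 23.3, 28.2, 32.6 and 24.6 CPM in AAV8-AGXT mice 308, 309, 316 and 319. The ranges overlapped between 23.3 and 26.3 CPM, with a log2 fold change of 0.24 (SE 0.14, edgeR adjusted p = 0.288). Gdf6, a ligand of joint and skeletal development, was present at 5.08, 4.22, 3.74 and 2.56 CPM in AAV8-GFP mice and at 0.967, 3.005, 2.003 and 1.56 CPM in AAV8-AGXT mice. Only AAV8-AGXT mouse 309 exceeded an AAV8-GFP mouse, 315. Its log2 fold change was -1.05 (SE 0.34, edgeR adjusted p = 0.0926, DESeq2 adjusted p = 0.0272). Bmp2 and Bmp6, which sinusoidal endothelial cells release to induce hepcidin, had log2 fold changes of 0.22 and -0.19 and were not called (edgeR adjusted p = 0.612 and 0.795). The remaining tested ligands of this class, Bmp4, Bmp5, Bmp7, Bmp10, Gdf3, Gdf9, Gdf10 and Gdf11, had log2 fold changes between -1.20 for Gdf3 and 0.76 for Bmp10. Without mouse 308 the log2 fold changes of Gdf3, Bmp10 and Bmp2 were -0.85, 0.41 and -0.02, none of them called. The smallest adjusted p among these was 0.138, for Bmp7, which had a log2 fold change of 0.60.

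None of the receptors for these ligands was called. Tgfbr2, the type II receptor that binds TGF-β, had 5.29 ± 0.638 CPM per kilobase in AAV8-GFP mice and 4.76 ± 1.56 in AAV8-AGXT mice, and Tgfbr1, its type I partner, had 4.67 ± 0.938 and 3.80 ± 0.952 (SD, n = 4 each). Tgfbr1 was present at 24.2, 30.9, 38.7 and 28.3 CPM in AAV8-GFP mice 303, 311, 314 and 315, and at 18.2, 31.2, 29.0 and 21.1 CPM in AAV8-AGXT mice 308, 309, 316 and 319. The groups overlapped, since mice 309 and 316 were above 303 and 315. Its log2 fold change was -0.30 (SE 0.20, edgeR adjusted p = 0.369). Tgfbr2 was present at 43.5, 44.5, 48.9 and 36.3 CPM in AAV8-GFP mice and at 21.6, 52.0, 42.9 and 39.5 CPM in AAV8-AGXT mice. Mouse 308 was the lowest and mouse 309 the highest of all 8, and the log2 fold change of -0.15 (SE 0.22) was not called (edgeR adjusted p = 0.711). Without mouse 308 it was 0.03 (edgeR adjusted p = 0.910). Tgfbr3, or betaglycan, which presents ligands to the signalling receptors, was present at 10.2, 8.60, 7.89 and 6.13 CPM in AAV8-GFP mice and at 10.9, 7.87, 11.7 and 5.33 CPM in AAV8-AGXT mice. These ranges nearly coincided (log2 fold change 0.12, SE 0.25, edgeR adjusted p = 0.801).

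The other tested receptors had log2 fold changes between -0.42 and 0.54. The lowest was that of Acvrl1, the endothelial receptor of BMP9 (SE 0.18, edgeR adjusted p = 0.182), and the highest was that of Acvr2b, a type II receptor of activins (SE 0.25, edgeR adjusted p = 0.201). The BMP receptors Bmpr1a and Bmpr2 had log2 fold changes of -0.04 (SE 0.15) and 0.08 (SE 0.18). Acvr1, Acvr1b and Acvr2a, which carry the activin receptor name, had -0.06 (SE 0.18), 0.18 (SE 0.12) and 0.29 (SE 0.16). The adjusted p-values of these genes by edgeR were at least 0.289, and none was called.

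Of the SMADs, Smad3, a receptor SMAD that carries TGF-β and activin signals, showed the smallest adjusted p. It was present at 23.7, 19.2, 26.7 and 25.4 CPM in AAV8-GFP mice 303, 311, 314 and 315, and at 18.8, 19.6, 20.1 and 16.3 CPM in AAV8-AGXT mice 308, 309, 316 and 319. The groups overlapped only because AAV8-GFP mouse 311 was low. Its log2 fold change was -0.34 (SE 0.13, edgeR adjusted p = 0.133), and it was called when libraries were scaled by total counts (log2 fold change -0.57, edgeR adjusted p = 0.048), which shifts all genes alike. Its counterpart Smad2 had a log2 fold change of 0.31 (SE 0.15, edgeR adjusted p = 0.230).

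Smad4, the common SMAD, had the highest level per kilobase of the SMADs, 5.38 ± 0.765 CPM per kilobase in AAV8-GFP mice and 5.95 ± 1.08 in AAV8-AGXT mice (SD, n = 4 each). It was present at 18.4, 17.9, 24.1 and 19.4 CPM in AAV8-GFP mice 303, 311, 314 and 315, and at 19.95, 28.1, 20.4 and 19.9 CPM in AAV8-AGXT mice 308, 309, 316 and 319. Apart from the highest mouse of each group, 314 and 309, the values lay within 3 CPM of each other (log2 fold change 0.15, SE 0.15, edgeR adjusted p = 0.573). Smad7, an inhibitory SMAD that TGF-β itself induces, was present at 22.4, 14.6, 16.9 and 17.1 CPM in AAV8-GFP mice and at 15.1, 24.7, 19.8 and 17.2 CPM in AAV8-AGXT mice. The ranges overlapped throughout (log2 fold change 0.11, SE 0.18, edgeR adjusted p = 0.725). The other inhibitory SMAD, Smad6, and the BMP-specific Smad1, Smad5 and Smad9 had log2 fold changes between -0.01 and 0.35 and edgeR adjusted p-values of at least 0.548.

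**Figure D3:**
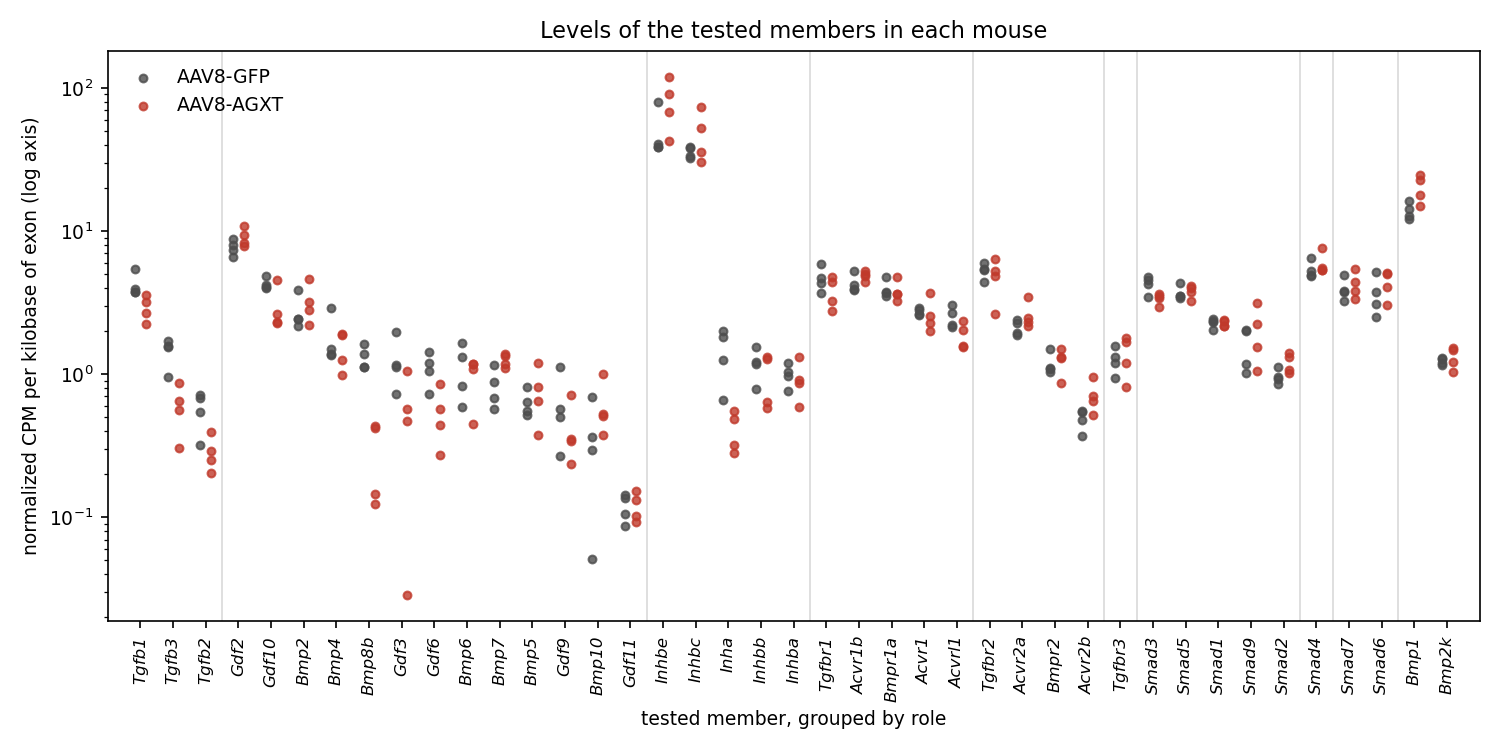
Normalized CPM per kilobase of exon (log axis) of the 41 tested members in each of the 8 mice, grouped by role. Inhbe and Inhbc lie above all other tested members in both groups, and the points of the groups are apart for Tgfb1, Tgfb3, Bmp8b and Inha.

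Bmp1, which matches by name only, encodes a metalloprotease that trims procollagens. Expression was 144, 127, 108 and 113 CPM in AAV8-GFP mice 303, 311, 314 and 315, and 219, 133, 157 and 201 CPM in AAV8-AGXT mice 308, 309, 316 and 319. Mouse 309 alone among the AAV8-AGXT mice fell within the AAV8-GFP range. The log2 fold change was 0.53 (SE 0.17, edgeR adjusted p = 0.0915), called by DESeq2 (adjusted p = 0.0394). Bmp2k, which encodes a kinase, had a log2 fold change of 0.08 and was not called (edgeR adjusted p = 0.756).

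The 8 members under the filter on low counts were Bmp3, Bmp15, Bmp8a, Gdf1, Gdf5, Gdf7, Acvr1c and Bmpr1b. None had more than 5 read pairs in any mouse. Gdf1 and Gdf5 had 0 read pairs in all 8. For Gdf5 this allows at most 3 read pairs, or 0.104 to 0.175 CPM, per library by counting error alone. All exon bases of Gdf1 lie within Cers1 on the same strand. Its reads could not be told from those of Cers1, so its count of 0 sets no such limit. Exon bases were shared with another gene in 13 of the 41 tested members, most of all in Bmp5, where 46.7% of them lie opposite Gm26903.

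Genes that store, activate, oppose or answer these ligands were read from 7 lists with 82 genes, of which 67 were tested. In the edgeR fit 3 were lower and 0 were higher (4.48% and 0% of those tested, against 1.9% and 2.45% of all genes). The median log2 fold change was -0.09 over these 67 genes and 0.02 over all genes tested. At an unadjusted p under 0.05, edgeR gave 7 higher and 14 lower, again without a share over all genes to set beside them. Under DESeq2 13 of the listed genes were called, 3 higher and 10 lower.

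Of the 14 genes for storage and activation of TGF-β, all tested, 12 had a lower mean in AAV8-AGXT mice and the median log2 fold change was -0.76. At an unadjusted p under 0.05, edgeR gave 2 higher and 7 lower. DESeq2 called 8 of the 14, with Ltbp2, Ltbp3, Nrros, Fbn1, Itgb5 and Thbs1 lower and Itgb3 and Furin higher. Over all its genes DESeq2 called 6.37% lower and 6.58% higher. By edgeR, Ltbp1, Ltbp3 and Ltbp4 of the latent TGF-β binding protein family were not called (adjusted p = 0.200, 0.0795 and 0.604). Ltbp2, which encodes a matrix protein and is listed with that family, was called, and whether its product holds TGF-β was not examined. Its values were 9.10, 13.1, 8.95 and 6.09 CPM in AAV8-GFP mice 303, 311, 314 and 315, and 1.79, 3.85, 3.24 and 2.08 CPM in AAV8-AGXT mice 308, 309, 316 and 319. The groups did not overlap, and the log2 fold change was -1.76 (SE 0.30, edgeR adjusted p = 0.0279). Without mouse 308 it was -1.63 (edgeR adjusted p = 0.0469), and the call was lost without 311, 314 or 319 (edgeR adjusted p = 0.115, 0.0798 and 0.0814). The gene of this list with the highest CPM, Furin, encodes a protease that cleaves the ligand precursors. It had a log2 fold change in the opposite direction, 0.39 (SE 0.13, edgeR adjusted p = 0.0946, DESeq2 adjusted p = 0.0225).

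Of 13 TGF-β target genes, 10 had a lower mean, the median log2 fold change was -0.33 and Timp1 was called by edgeR. At an unadjusted p under 0.05, edgeR gave 1 higher and 5 lower. Timp1, which encodes an inhibitor of matrix metalloproteases, was present at 8.40, 15.3, 17.2 and 9.04 CPM in AAV8-GFP mice 303, 311, 314 and 315, and at 0.483, 3.55, 4.62 and 1.46 CPM in AAV8-AGXT mice 308, 309, 316 and 319. The groups did not overlap and mouse 308 was the lowest. The log2 fold change was -2.29 (SE 0.52, edgeR adjusted p = 0.0444), and it was -1.98 without mouse 308 and was not called (edgeR adjusted p = 0.0545). Leaving out 303, 311, 314, 309 or 319 also ended the call (edgeR adjusted p = 0.0636, 0.148, 0.112, 0.0528 and 0.109). The collagen genes Col1a1, Col1a2 and Col3a1, named after their values were seen, had log2 fold changes of -1.77, -1.34 and -1.37. They did not pass the edgeR threshold (adjusted p = 0.0769, 0.107 and 0.118). Their groups did not overlap, and 4 of the 13 genes were lower in this way, against 7.63% of all genes tested. Mouse 308 was the lowest for each, at 8.35, 11.3 and 18.8 CPM, and their fits without it were not examined. DESeq2 called 3 of the 13, all lower. These were Timp1, Col1a1 (adjusted p = 0.0431) and Pmepa1 (adjusted p = 0.00409, edgeR adjusted p = 0.0528). Fn1, the target with the highest CPM, which hepatocytes also secrete, had a log2 fold change of 0.49 (SE 0.22, edgeR adjusted p = 0.185).

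BMP target genes gave 0 calls among 7 tested, by edgeR or by DESeq2, with 2 higher and 0 lower at an unadjusted p under 0.05 by edgeR and a median log2 fold change of 0.17. Hamp, which encodes hepcidin and had the highest CPM, had a log2 fold change of 0.27 (SE 0.31, edgeR adjusted p = 0.615), and Id1, the standard BMP readout, had -0.03 (SE 0.22, edgeR adjusted p = 0.942). Of 13 regulators of SMAD signalling, Tgif1, a co-repressor of SMADs, was lower. Its values were 48.3, 42.9, 46.5 and 57.3 CPM in AAV8-GFP mice 303, 311, 314 and 315, and 29.96, 40.1, 34.1 and 30.8 CPM in AAV8-AGXT mice 308, 309, 316 and 319. The groups did not overlap, and the log2 fold change was -0.53 (SE 0.13, edgeR adjusted p = 0.0479). Without mouse 308 it was -0.49 and not called (edgeR adjusted p = 0.0906), and the call held only without mouse 309, the values without 303, 311, 314, 315, 316 and 319 being 0.0844, 0.127, 0.101, 0.0747, 0.0778 and 0.123. The regulator with the highest CPM, Ppm1a, a phosphatase, had a log2 fold change of 0.26 (edgeR adjusted p = 0.188).

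By edgeR 0 calls were made among 9 tested secreted antagonists, 7 co-receptors and decoy receptors and 4 other ligands and receptors, whose median log2 fold changes were -0.15, -0.04 and 0.25. DESeq2 called 1 antagonist and none of the others, and 1 antagonist and none of the others had an unadjusted p under 0.05 by edgeR. In each case the antagonist was higher in AAV8-AGXT mice. The genes with the highest CPM in these lists were Dcn, which encodes the TGF-β binding proteoglycan decorin (log2 fold change -0.15, edgeR adjusted p = 0.782), Hfe2, the hepatocyte co-receptor hemojuvelin (0.18, edgeR adjusted p = 0.533), and Nrtn, a neurotrophic ligand (0.21, edgeR adjusted p = 0.748).

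**Figure D4:**
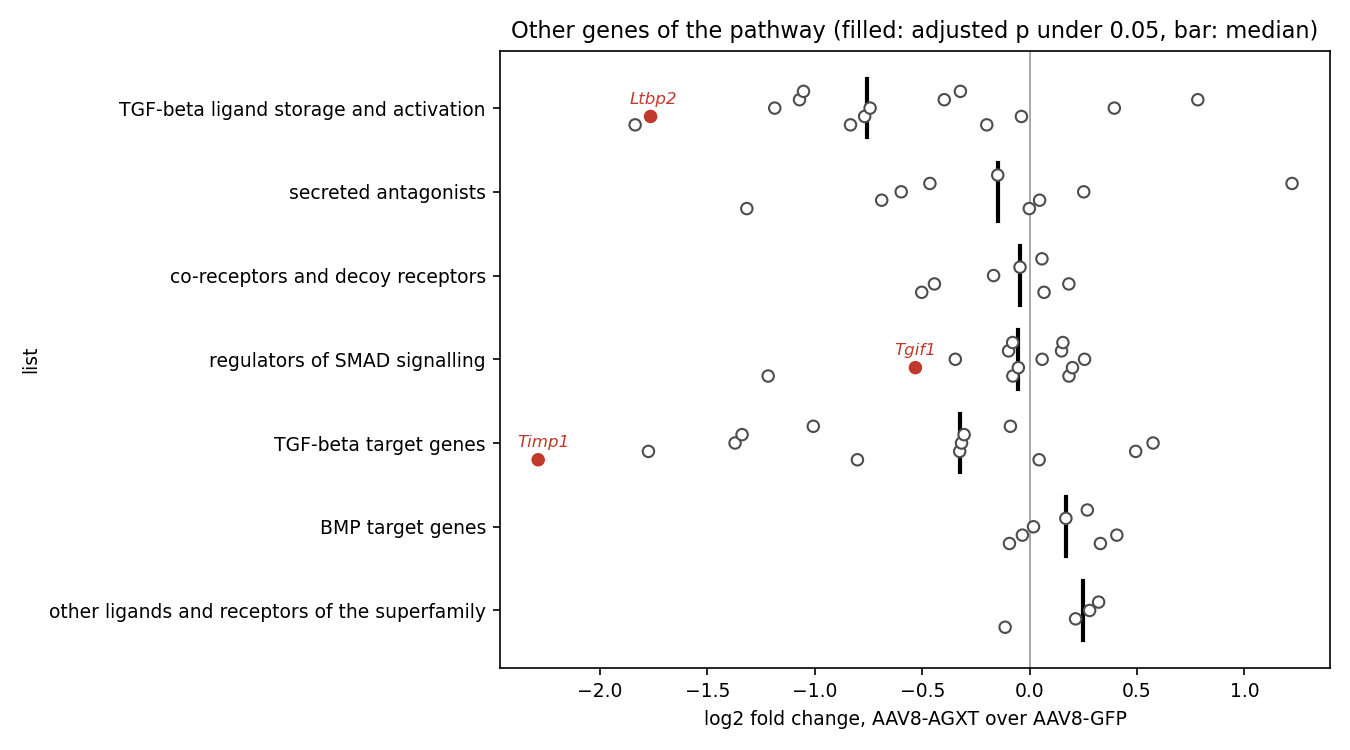
Log2 fold change (AAV8-AGXT over AAV8-GFP, horizontal axis) of the 67 tested genes in 7 lists, with a vertical bar for the median of each list. Filled points mark the called genes Ltbp2, Tgif1 and Timp1, and the medians run from -0.76 for storage and activation to 0.25 for other ligands and receptors.

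Markers of several cell types were read from the same edgeR fit, which called 1.9% of all genes tested lower. In bulk liver, fewer cells of a type and less RNA per cell cannot be told apart. Markers of myofibroblasts, the matrix-producing form of stellate cells, summed to 53.3 to 88.7 CPM in AAV8-GFP mice and 19.7 to 47.8 CPM in AAV8-AGXT mice, with a lower mean for 5 of 6 markers and 1 called, Acta2 (log2 fold change -0.99, edgeR adjusted p = 0.0427). Markers of recruited macrophages summed to 388 to 681 CPM and 85.5 to 426 CPM, with a lower mean for 6 of 6 and 1 called, Cd9 (log2 fold change -1.03, edgeR adjusted p = 0.0298). Cholangiocyte markers summed to 24.1 to 65.3 CPM and 13.9 to 34.6 CPM, with a lower mean for 5 of 5 and 0 called by edgeR. T and NK cell markers summed to 7.30 to 13.99 CPM and 2.69 to 8.99 CPM, with a lower mean for 4 of 5 and 0 called by edgeR. DESeq2 called 3 of 6 myofibroblast, 3 of 6 recruited macrophage, 3 of 5 cholangiocyte and 2 of 5 T and NK cell markers, all lower. Mouse 308 had the lowest sum of the AAV8-AGXT mice in each of these 4 lists, and no marker of them was at 0 in all mice. Their part in the lower levels of Bmp8b, Tgfb3, Inha, Ltbp2, Timp1 and Tgif1 was not tested.

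Markers of hepatic stellate cells summed to 171 to 236 CPM in AAV8-GFP mice and 141 to 236 CPM in AAV8-AGXT mice. Those of sinusoidal endothelial cells summed to 226 to 333 CPM and 204 to 411 CPM, and those of Kupffer cells to 230 to 362 CPM and 180 to 740 CPM. By edgeR no marker was called in these 3 lists. The highest Kupffer cell sum was that of mouse 319, with Marco at 156 CPM, against 5.94, 12.4 and 10.4 CPM in mice 308, 309 and 316. DESeq2 called 1 Kupffer cell marker, Timd4 (edgeR log2 fold change 2.49, edgeR adjusted p = 0.0736, DESeq2 adjusted p = 0.00342). Neutrophil markers summed to 20.3 to 32.3 CPM and 6.83 to 21.8 CPM, with a lower mean for 3 of 3 tested. B cell markers summed to 3.75 to 9.12 CPM and 3.73 to 6.42 CPM, with a lower mean for 3 of 4. Erythroid markers summed to 82.9 to 140 CPM and 111 to 288 CPM, with a higher mean for 4 of 4. The neutrophil, B cell and erythroid lists also held no call by edgeR. DESeq2 called 1 neutrophil marker, which was lower, and 1 erythroid marker, which was higher. Among hepatocyte markers all 6 had a higher mean in AAV8-AGXT mice and Cps1 was called (log2 fold change 0.96, edgeR adjusted p = 0.0279). DESeq2 called 2 of the 6. The adipocyte list, with 1 of 3 genes tested, held a call for Cfd (log2 fold change 1.93, edgeR adjusted p = 0.0487). Its other genes were at the floor, Lep with 0 CPM in all mice and Adipoq with at most 0.0944 CPM.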

How the data were processed

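The authors sequenced stranded mRNA libraries of mouse liver as read pairs, 1 library per mouse. Per the labels and the study's methods, reads were checked with FastQC 0.11.8, trimmed with Trimmomatic 0.35, mapped with HISAT2 2.1.0.13 to GRCm38 and counted on Ensembl genes with HTSeq. The deposited values are raw counts per gene, with no normalization. Rows that named no gene held 30.9% to 43.7% of the tallies, of which pairs aligned at several places were 17.4% to 23.4%, and they were left out of library sizes. The counting may leave out read pairs of close paralogs and overlapping genes.

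Of 52636 genes, 52489 were matched to GENCODE M21 on the same build, which gave symbols, positions and exon lengths. Differential expression was tested in R 4.3.3 with edgeR 4.0.16 (filterByExpr, TMM factors, quasi-likelihood fit, treatment as the only term, no robust estimation), with adjustment over 15248 genes. CPM used the TMM factors, and CPM per kilobase divided them by the merged exon length. Standard errors came from the coefficient and the F statistic. Alternatives were DESeq2 1.42.0, limma-voom (limma 3.58.1), robust estimation, DESeq2 size factors, upper-quartile factors, total counts, no filter, at least 10 counts in every mouse, and each mouse left out. Fits were tested on simulated data.

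Members and lists were chosen with earlier results of these data known. Values of every mouse were given for members called by edgeR or DESeq2, for TGF-β ligands and receptors, and for the member with the highest CPM per kilobase in each role. From the lists, genes called by edgeR and the gene of highest CPM were named. Some others, among them the collagen genes and genes called by DESeq2, were named after their values were seen. 1 listed gene is not reported here as a single gene. Mice were grouped by the treatment in the labels and none was left out. At this depth the spread between mice, a biological coefficient of variation of 23.3%, limits the precision of all but scarce genes. No pair of libraries of a group agreed within sampling noise (chi-square per degree of freedom 31.9 to 91.5).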

Additional observations from a re-analysis of the deposited data

Results flagged for a closer look

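In 10 of 82 groups of 4 mice (41 tested members in each treatment), a single mouse lay apart from the other 3, its gap to the nearest of them divided by the range of the group exceeding the 95% critical value of Dixon's test. Chance gives this in about 1 in 20 groups, or 4.1 of 82. Mouse 303 was the high AAV8-GFP mouse for Bmp2 (13.9 CPM against 7.67 to 8.69 in the others, ratio 0.835), Bmp4 (6.52 against 3.06 to 3.37, ratio 0.911) and Inhbe (422 against 206 to 216, ratio 0.956). Mouse 314 was the high AAV8-GFP mouse for Smad5 (32.0 CPM against 25.2 to 26.2, ratio 0.854), Bmpr1a (30.3 against 22.5 to 23.8, ratio 0.839) and Bmpr2 (26.9 against 18.6 to 19.9, ratio 0.842), and mouse 311 was for Tgfb1 (27.4 against 18.8 to 19.9, ratio 0.878). Among AAV8-AGXT mice, 319 was low for Bmp6 (1.75 CPM against 4.27 to 4.63, ratio 0.875), 316 was high for Gdf10 (23.9 against 11.9 to 13.7, ratio 0.848), and 309 was high for Smad4 (28.1 against 19.9 to 20.4, ratio 0.930). None of the 3 called members, Bmp8b, Tgfb3 and Inha, had such a mouse in either group.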

How the results depend on the processing

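As reported, edgeR called 0 members higher and 3 lower, 374 of all genes higher and 290 lower, and 0 genes of the 7 lists higher and 3 lower. DESeq2 called 1 member higher and 5 lower, 1068 of all genes higher and 1033 lower, and 3 listed genes higher and 10 lower. Scaling by total counts gave 144 of all genes higher and 857 lower, so that calls were higher in 14.4% in place of 56.3%, while upper-quartile factors gave 46.0%. Without a filter on low counts, 1 listed gene was higher and 7 were lower. With at least 10 counts in every mouse, 0 members were lower, because this filter drops Bmp8b and Inha and Tgfb3 came to an adjusted p of 0.0508. With each mouse left out in turn, 0 to 4 members, 0 to 325 of all genes and 0 to 5 listed genes were lower, and 2 to 379 of all genes were higher, with fewest calls without mouse 311 (2 higher and 0 lower genes). Limma-voom did not call Inha (adjusted p = 0.0612), and DESeq2 size factors and upper-quartile factors did not call Tgfb3 (0.0518 and 0.0527). Gdf10 was called without mouse 316 and Tgfb2 without mouse 315 (edgeR adjusted p = 0.0326 and 0.0476). Of 650 fits of single members under 16 alternatives, 590 kept direction and call, 20 lost a call, 6 gained one and 34 changed sign without a call, all in members whose absolute log2 fold change was at most 0.27. Apart from the filter that drops Bmp8b and Inha, the cause of these changes was not tested. No paired analysis was possible because the groups share no animal numbers. Of the called members, Bmp8b and Inha had as few as 7 and 6 read pairs in an AAV8-AGXT mouse.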

Other observations

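Among the 41 tested members, mouse 308 had the lowest value of all 8 mice for 14 members and the highest for 5. Mice 303 and 309 each had the highest value for 8 members. RefSeq promoter windows on GRCm38.p6 were matched for 35 members with 42 promoters, and searched on both strands over 250 bases before the start. The SMAD-binding letters CAGAC occurred in 42.9% of them and in 42.2% of 32536 promoters of all genes, the BMP-response letters GGCGCC in 16.7% and 9.65%, and the AP-1 letters TGANTCA in 0% and 6.73%. The windows of Bmp8b and Inha each held 1 match to CAGAC, that of Inha on the opposite strand. The Inha window, chr1:75507359-75507608, lies within the gene as located above, so its match is not upstream of that gene start. Tgfb3 was not among the matched promoters, and a match is a description of the letters only.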
